A study of Mus musculus with 6 samples.

Results

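Microglial genes were followed in gene counts of a WNT medulloblastoma model, a hindbrain tumour grown in mice. The group holds 10 genes of 34591 in the count tables, found by their symbols: 4 markers of homeostatic microglia (P2ry12, Cx3cr1, Csf1r and Tmem119), 2 genes shared by resting and reactive microglia (Aif1 and Tyrobp), and 4 genes linked to the activated state (Trem2, Spp1, Lgals3 and Gpnmb). The labels give 3 libraries as the tumour model with sh2-Ift88, a short hairpin RNA against the ciliary transport gene Ift88, and 3 as the control model. All 6 are bulk total RNA from tumour-bearing mouse brain, made with a stranded kit. The labels give no strain, age or time point, do not say what the controls carry in place of the hairpin, and do not say which cells the hairpin entered or whether each library came from a separate animal, so p-values measure the spread between these libraries, which may in part be technical.

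Microglia are the resident macrophages of the brain and depend on the receptor Csf1r for survival. At rest they survey the tissue and carry P2ry12, which senses released nucleotides, and Cx3cr1, which binds the neuronal ligand Cx3cl1. In disease, injury and tumours, signalling through the lipid receptor Trem2 and its adaptor Tyrobp accompanies a state in which P2ry12 and Tmem119 are typically low and Spp1, Lgals3 and Gpnmb are high. None of the last 3 is specific to microglia: infiltrating macrophages, and at times tumour, glial or pigment cells, make them too.

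Gene counts per library summed to between 26802618 and 33772559. Ift88 itself was at 14.7, 16.03 and 14.4 CPM (counts per 1000000 counts of the scaled library) in the libraries labelled sh2-Ift88 1, 2 and 3, against 13.8, 19.7 and 13.7 CPM in controls 1, 2 and 3, and at 15.4, 17.5 and 8.62 against 14.7, 21.8 and 16.9 when scaled by library totals alone. The groups overlapped on both scales, so the label was not matched by a separation of Ift88 transcript levels, and directions are given for the libraries as labelled. The library labelled sh2-Ift88 3 stood apart, with 10.2% of its reads not aligned and 4.37% ambiguous, while the other 5 libraries had at most 3.96% and 1.60%. Its scaling also differed: trimmed-mean (TMM) scaling, used for all CPM here unless stated, raised its values to 1.67 times those scaled by library totals, and multiplied those of the other 5 libraries by 0.809 to 0.956. Reads on more than 100 olfactory receptor genes, which brain tumours should not express, were present in sh2-Ift88 2, sh2-Ift88 3 and control 2.

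All 10 genes, the defining microglial markers among them, had reads in each library. To compare genes with each other, CPM were divided by the length of the principal transcript in kilobases. On this scale, averaged over the 6 libraries, Tmem119 had the highest level (30.2 CPM per kb), followed by Tyrobp (11.4), Gpnmb (8.85), Spp1 (6.42), Lgals3 (4.55), Csf1r (4.46), Cx3cr1 (2.82), Aif1 (2.62), Trem2 (2.25) and P2ry12 (0.953), all in CPM per kb. The Tmem119 level per kb was at least 23.8 in every library and thus above the highest Tyrobp level of 20.4. From Tyrobp downward, neighbouring genes in this order overlapped in their range over libraries.

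The homeostatic genes P2ry12, Cx3cr1 and Csf1r varied strongly between libraries, and their groups overlapped. P2ry12 was at 3.14, 1.88 and 0.187 CPM in sh2-Ift88 1, 2 and 3, against 0.818, 2.02 and 5.36 CPM in controls 1, 2 and 3. Cx3cr1 was at 21.1, 11.2 and 1.94 CPM in sh2-Ift88 1, 2 and 3, against 10.02, 13.6 and 18.0 CPM in controls 1, 2 and 3. Csf1r was at 38.4, 23.4 and 4.37 CPM in sh2-Ift88 1, 2 and 3, against 13.1, 20.03 and 26.4 CPM in controls 1, 2 and 3. In each of the 3 genes the lowest library was sh2-Ift88 3, the next lowest control 1, and the highest either sh2-Ift88 1 or control 3, so both groups spanned high and low libraries. The P2ry12 value in sh2-Ift88 3 rests on 3 reads, for which the exact Clopper-Pearson 95% interval, covering counting error only, is 0.0386 to 0.548 CPM. In bulk tissue, fewer microglia and less RNA per microglial cell cannot be told apart.

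Tmem119, a transmembrane protein used to tell microglia from other macrophages, did not show this spread. It was at 68.2, 72.6 and 64.0 CPM in sh2-Ift88 1, 2 and 3, against 91.4, 57.2 and 53.4 CPM in controls 1, 2 and 3. Its highest library, control 1, held 1.71 times the level of its lowest, control 3, whereas P2ry12 spanned 28.6-fold, Cx3cr1 10.9-fold and Csf1r 8.79-fold. Scaled by library totals alone, Tmem119 was at 71.4, 79.3 and 38.2 CPM in sh2-Ift88 1, 2 and 3, against 97.5, 63.1 and 66.01 CPM in controls 1, 2 and 3. Its span was then 2.55-fold with sh2-Ift88 3 lowest, beside 59.3-fold for P2ry12, 19.3-fold for Cx3cr1 and 15.4-fold for Csf1r. In sh2-Ift88 3, where the other 3 homeostatic genes had between 3 and 70 reads, Tmem119 had 1024. Among 14741 genes averaging at least 1 CPM, 18.5% had a smaller SD of log2 CPM over the 6 libraries than Tmem119, and 86.9% to 93.5% had a smaller SD than the other 3 homeostatic genes. Whether cells other than microglia added to the Tmem119 reads was not tested.

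Aif1, which encodes the calcium-binding protein Iba1, and Tyrobp, the signalling adaptor of Trem2, followed the pattern of Cx3cr1 and Csf1r. Aif1 was at 4.70, 2.15 and 0.437 CPM in sh2-Ift88 1, 2 and 3, against 1.73, 1.66 and 3.07 CPM in controls 1, 2 and 3. Tyrobp was at 8.54, 4.97 and 1.25 CPM in sh2-Ift88 1, 2 and 3, against 5.45, 6.83 and 11.5 CPM in controls 1, 2 and 3. Both were highest in sh2-Ift88 1 or control 3 and lowest in sh2-Ift88 3, and the groups overlapped. Over all 10 genes, 9 were lowest in sh2-Ift88 3, as were 14.3% of all genes tested, and 8 spanned at least 8-fold over the 6 libraries, as did 16.1% of all genes tested. With library totals alone, all 10 were lowest in sh2-Ift88 3, as were 62.9% of all genes tested.

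**Figure D1:**
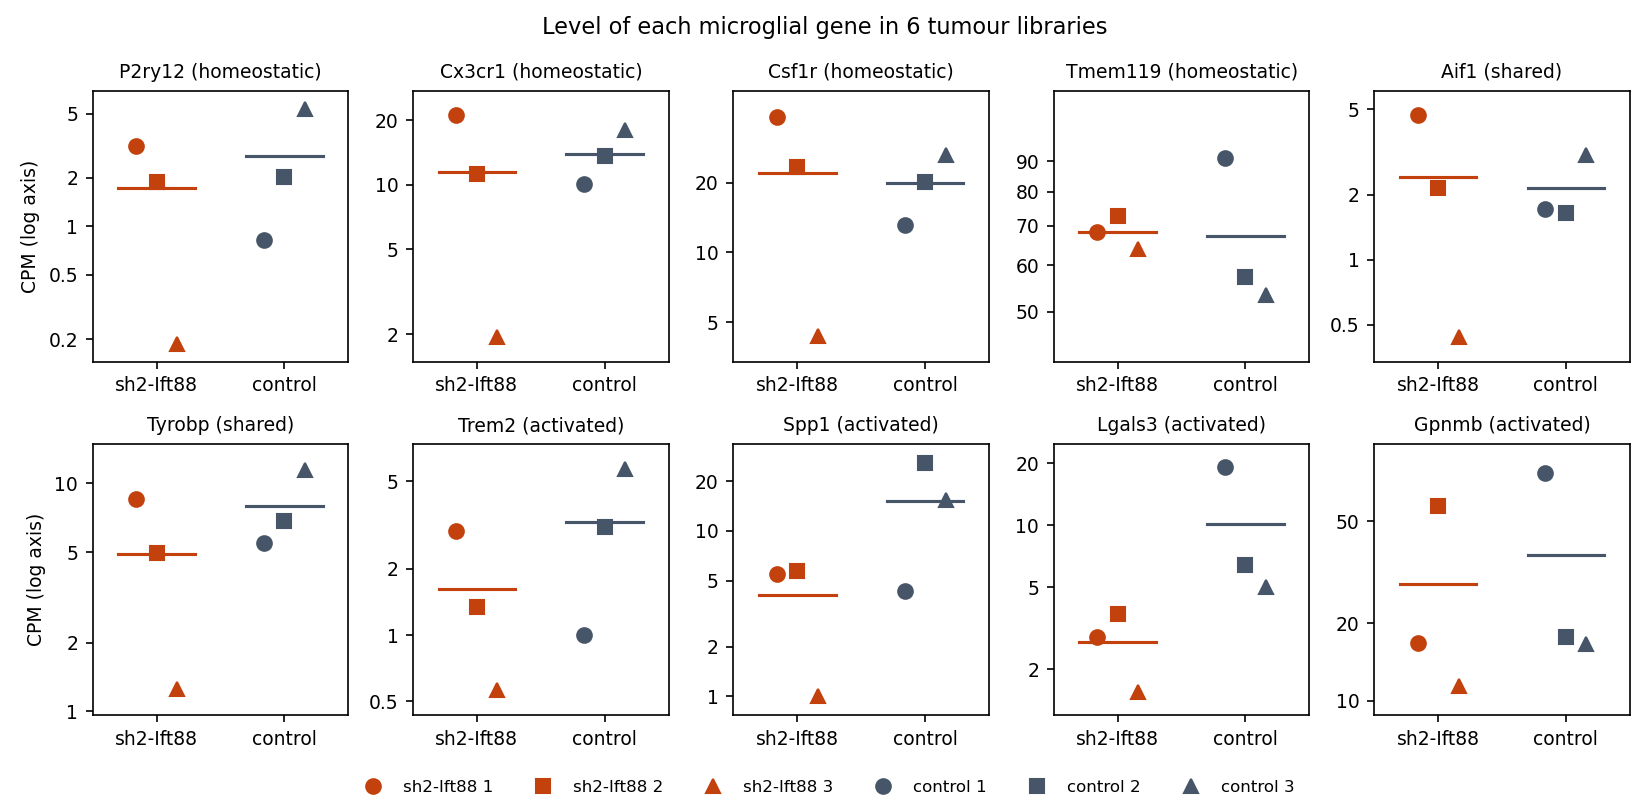
Level of each of the 10 genes in CPM (log axis, a separate scale for each panel) in the 3 libraries labelled sh2-Ift88 and the 3 controls; horizontal lines are group means. Lgals3 is the gene whose groups do not overlap, sh2-Ift88 3 is the lowest library in 9 of 10 panels, and Tmem119 spans 1.71-fold over all libraries.

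Of the activated genes, Trem2, a receptor for lipids and apolipoproteins, was at 2.97, 1.34 and 0.562 CPM in sh2-Ift88 1, 2 and 3, against 0.999, 3.09 and 5.71 CPM in controls 1, 2 and 3. Its order of libraries was close to that of P2ry12, with control 3 highest and control 1 and sh2-Ift88 3 lowest. Spp1, the secreted adhesion protein osteopontin, was at 5.49, 5.75 and 0.999 CPM in sh2-Ift88 1, 2 and 3, against 4.36, 25.9 and 15.5 CPM in controls 1, 2 and 3. Controls 2 and 3 stood above all other libraries for Spp1, and control 1 fell within the range of the libraries labelled sh2-Ift88.

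Lgals3, the galactoside-binding lectin galectin-3, was the one gene of the 10 whose groups did not overlap. It was at 2.89, 3.70 and 1.56 CPM in sh2-Ift88 1, 2 and 3, against 19.1, 6.44 and 5.02 CPM in controls 1, 2 and 3. All 3 libraries labelled sh2-Ift88 lay below every control, and control 1 stood well above the other 2 controls. Of 16768 genes tested, 3.69% likewise had all libraries labelled sh2-Ift88 below all controls, and 8.39% were separated in either direction. With library totals alone Lgals3 was again separated, as were 10.2% of all genes in that direction.

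Gpnmb, a membrane glycoprotein of lysosomes and melanosomes, was at 16.8, 57.2 and 11.4 CPM in sh2-Ift88 1, 2 and 3, against 76.8, 17.7 and 16.6 CPM in controls 1, 2 and 3. High Gpnmb was thus found in control 1 and sh2-Ift88 2, 1 library of each group, and the other 4 libraries lay between 11.4 and 17.7 CPM. Control 1, the library with the most Gpnmb and Lgals3, was the second lowest for P2ry12, Cx3cr1, Csf1r, Trem2 and Spp1. Melanosome genes, summed over a list of 10, were at 281, 230 and 349 CPM in sh2-Ift88 1, 2 and 3, against 63.4, 402 and 53.4 CPM in controls 1, 2 and 3, with Tyrp1 and Mlana at 0 in at least 1 library. The sum was mostly Dct, at 229, 189 and 318 CPM in sh2-Ift88 1, 2 and 3, against 33.3, 372 and 0.198 CPM in controls 1, 2 and 3. Trpm1 was highest in control 1 (16.5 CPM) and Slc45a2 in sh2-Ift88 2 (1.81 CPM), the libraries with high Gpnmb. The other tested genes of the list peaked elsewhere. Dct did so in control 2, Oca2 in sh2-Ift88 1 (3.62 CPM), Mitf in control 3 (45.6 CPM) and Pmel in sh2-Ift88 3 (0.562 CPM). Oca2 (0.182 CPM) and Mitf (12.4 CPM) were lowest in control 1. The part of pigment-cell genes in the Gpnmb values was not tested.

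The promoters below, of Aif1, Trem2, Spp1 and Gpnmb, are shown because each holds a match to a PU.1 motif or a loose AP-1 motif, and they were chosen after the search. The windows of Cx3cr1 and Lgals3 and that of the second start of Spp1 held none of the motifs searched and are not shown. Those shown are RefSeq windows of build GRCm38.p6, from 250 bases before to 50 bases after the annotated start, at chr17:35176003-35176302 on the minus strand for Aif1, chr17:48346151-48346450 on the plus strand for Trem2, chr5:104434861-104435160 on the plus strand for the first start of Spp1, and chr6:49036268-49036567 on the plus strand for Gpnmb. Capitals mark matches, on either strand, to GAGGAA or GAGGAAGT, the binding core of the myeloid factor PU.1, or to TGANTCA. The last is a loose form of the AP-1 element in which N is any base. Both PU.1 cores were searched separately and every GAGGAAGT also counts as a GAGGAA.
Aif1: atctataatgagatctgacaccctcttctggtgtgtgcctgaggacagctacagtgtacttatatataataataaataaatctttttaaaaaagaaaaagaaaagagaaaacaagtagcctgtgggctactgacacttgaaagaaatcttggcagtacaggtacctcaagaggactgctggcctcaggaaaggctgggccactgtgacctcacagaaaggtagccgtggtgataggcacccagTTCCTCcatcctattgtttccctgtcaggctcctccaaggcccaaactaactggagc
Trem2: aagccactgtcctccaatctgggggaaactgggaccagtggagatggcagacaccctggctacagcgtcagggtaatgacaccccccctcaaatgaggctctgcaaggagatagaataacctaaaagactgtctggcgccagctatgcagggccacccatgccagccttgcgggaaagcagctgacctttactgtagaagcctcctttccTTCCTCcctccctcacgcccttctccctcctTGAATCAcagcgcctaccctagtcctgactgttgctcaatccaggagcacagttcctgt
Spp1: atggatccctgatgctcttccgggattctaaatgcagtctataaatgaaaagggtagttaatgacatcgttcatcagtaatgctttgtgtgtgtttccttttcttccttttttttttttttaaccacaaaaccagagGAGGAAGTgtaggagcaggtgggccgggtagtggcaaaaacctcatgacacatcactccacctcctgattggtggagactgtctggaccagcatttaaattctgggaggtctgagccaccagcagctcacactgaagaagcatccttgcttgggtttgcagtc
Gpnmb: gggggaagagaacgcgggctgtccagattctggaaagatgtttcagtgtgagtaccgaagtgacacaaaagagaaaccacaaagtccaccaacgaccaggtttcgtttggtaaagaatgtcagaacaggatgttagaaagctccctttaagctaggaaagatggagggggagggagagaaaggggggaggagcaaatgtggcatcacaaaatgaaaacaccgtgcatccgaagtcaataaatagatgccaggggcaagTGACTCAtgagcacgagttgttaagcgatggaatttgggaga
Windows of 7 of the 10 genes were searched, 8 windows in all. Csf1r, Tmem119 and Tyrobp were not part of this search, so the counts below do not cover them. GAGGAAGT occurred in 1 of the 8, that of Spp1, and in 3.20% of all 32851 promoter windows of the same length. GAGGAA occurred in 3 of the 8 (Aif1, Trem2 and Spp1) and in 28.3% of all windows. TGANTCA occurred in 2 of the 8 (Trem2, as TGAATCA, and Gpnmb, as TGACTCA) and in 7.81% of all windows. The lysosomal E-box core CACGTG occurred in 1, that of P2ry12, and in 7.15% of all windows, and the pigment-cell box CATGTG occurred in 0 of the 8 and in 14.2% of all windows. These are matches of letters in a short window, not binding measurements.

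Between the groups, no gene of the 10 passed the test. edgeR's quasi-likelihood test called 0% of the 16768 genes tested at an adjusted p of 0.05, and 0 of the 10 microglial genes. At an unadjusted p of 0.05 it reached 3.23% of all genes and 1 of the 10, Lgals3. DESeq2 called 0.335% of all genes and 0 of the 10.

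Lgals3 and Spp1 had the lowest fold changes of the 10, and all 4 activated genes lay below 0, while the homeostatic genes lay on both sides of 0; no test compared the sets. Lgals3 averaged 2.71 ± 1.08 CPM in libraries labelled sh2-Ift88 and 10.2 ± 7.76 CPM in controls (SD, n = 3 each), or -1.90 as log2 fold change (standard error 0.64, adjusted p = 0.9995 by edgeR). Spp1 averaged 4.08 ± 2.67 CPM in libraries labelled sh2-Ift88 and 15.3 ± 10.8 CPM in controls, or -1.89 as log2 fold change (standard error 0.82, adjusted p = 0.9995 by edgeR). Trem2 had a log2 fold change of -0.99 (standard error 0.83) and Gpnmb of -0.38 (standard error 0.80). Among the homeostatic genes the log2 fold change was -0.64 for P2ry12, -0.28 for Cx3cr1, 0.15 for Csf1r and 0.02 for Tmem119, and among the shared genes 0.19 for Aif1 and -0.68 for Tyrobp. The median was -1.44 over the 4 activated genes and -0.13 over the 4 homeostatic genes, beside -0.012 over all genes tested. A value below 0 was found in 7 of the 10 and in 51.3% of all genes. A log2 fold change of -1 or lower was found in 2 of the 10 (Spp1 and Lgals3) and in 3.97% of all genes. The intervals are wide: the 95% interval of P2ry12 ran from -3.04 to 1.76 and that of Csf1r from -1.47 to 1.78, so a difference of several-fold in either direction was not detectable at this spread, while that of Tmem119 ran from -0.61 to 0.65.

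**Figure D2:**
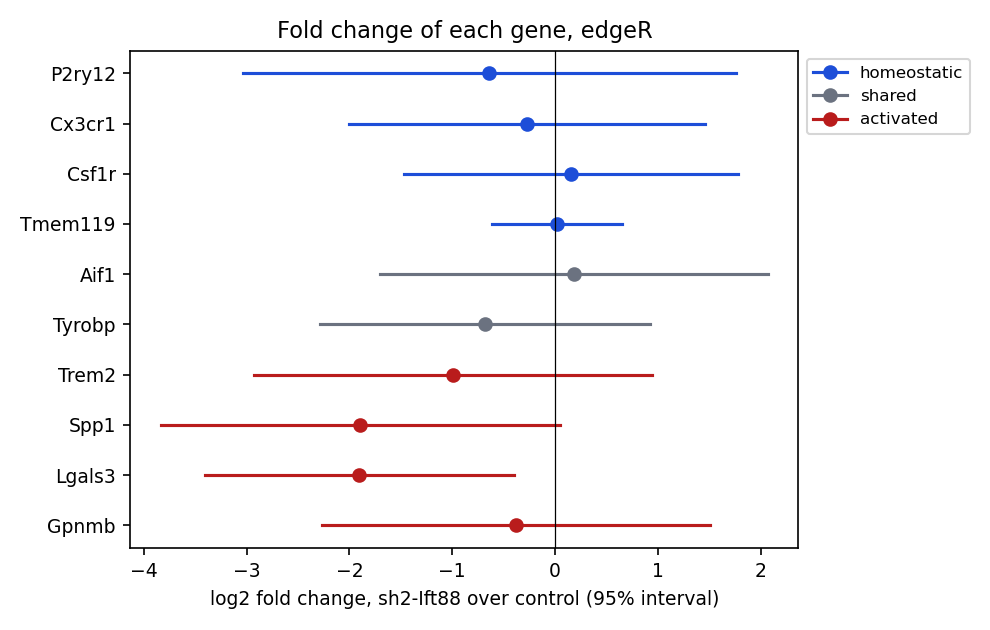
Log2 fold change of each gene in libraries labelled sh2-Ift88 over controls (points) with 95% intervals from the edgeR fit, coloured by role. The interval of Lgals3, from -3.41 to -0.40 and not adjusted for multiple testing, is the one that does not reach 0.

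The library that stood apart and the split by silent-gene reads moved these values. Without sh2-Ift88 3 the log2 fold change was -1.65 for Lgals3, -1.48 for Spp1, -0.64 for Trem2 and -0.02 for Gpnmb, and it was -0.17 for P2ry12, 0.18 for Cx3cr1, 0.60 for Csf1r, 0.63 for Aif1 and -0.27 for Tyrobp, again with 0 of the 10 called. Without control 1, where Lgals3 was highest, its log2 fold change was -1.07. Within the 3 libraries with olfactory receptor reads (sh2-Ift88 2 and 3 against control 2) it was -1.30 for Lgals3 and -2.94 for Spp1, and within the 3 without (sh2-Ift88 1 against controls 1 and 3) it was -2.08 for Lgals3 and -0.91 for Spp1. Each of these splits leaves 1 library alone in a group, which is assumed to vary like the others.

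Set against the homeostatic genes of the same library, the activated genes averaged lower in libraries labelled sh2-Ift88, with overlap between the groups. The mean log2 CPM of the 4 activated genes was 2.41, 2.68 and 0.85 in sh2-Ift88 1, 2 and 3, against 3.17, 3.29 and 3.22 in controls 1, 2 and 3. The 3 controls were alike in this mean although different genes were above their own mean over the libraries, chiefly Lgals3 and Gpnmb in control 1, Spp1 in control 2, and Trem2 and Spp1 in control 3. The mean log2 CPM of the 4 homeostatic genes was 4.35, 3.79 and 1.70 in sh2-Ift88 1, 2 and 3, against 3.32, 3.74 and 4.27 in controls 1, 2 and 3. The difference, activated minus homeostatic, was -1.94, -1.11 and -0.85 in sh2-Ift88 1, 2 and 3, against -0.16, -0.45 and -1.05 in controls 1, 2 and 3. Control 3 fell below sh2-Ift88 3, so the groups overlapped. The difference averaged -1.30 ± 0.57 in libraries labelled sh2-Ift88 and -0.55 ± 0.46 in controls (log2, SD, n = 3 each), -0.75 apart, and no test was made of a score over chosen genes. With Tmem119 left out, a choice made after its levels were seen, the difference was -1.36, -0.31 and 0.58 in sh2-Ift88 1, 2 and 3, against 0.91, 0.25 and -0.56 in controls 1, 2 and 3. The groups then overlapped over most of their range.

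**Figure D3:**
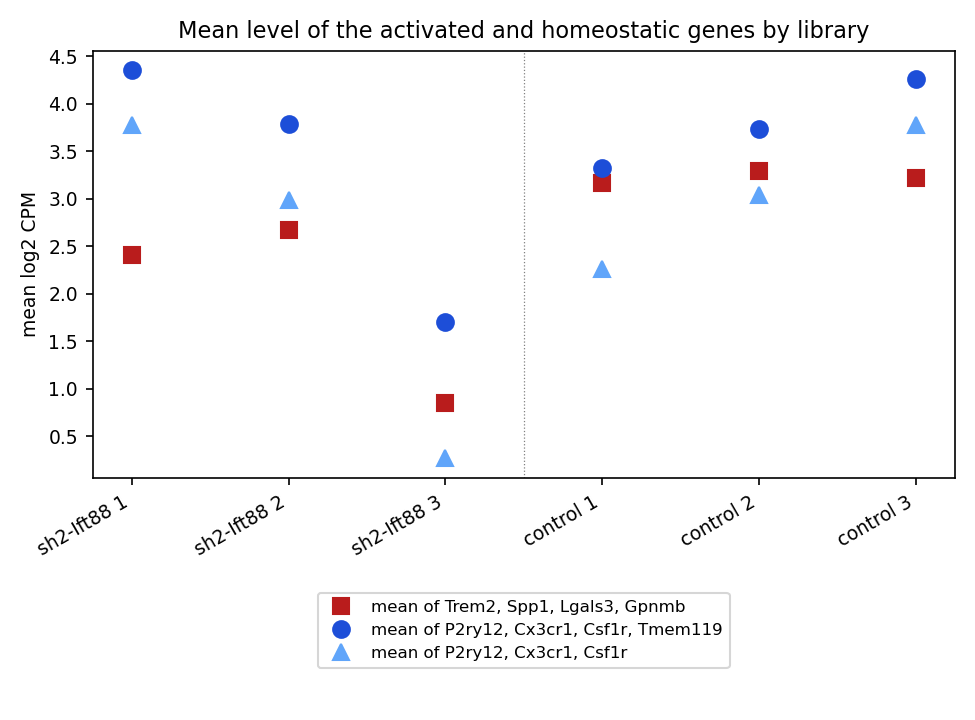
Mean log2 CPM of the activated genes (squares), of the 4 homeostatic genes (circles) and of the homeostatic genes without Tmem119 (triangles) in each library. The activated mean lies between 3.17 and 3.29 in the controls and at 2.68 or below in the libraries labelled sh2-Ift88, while the homeostatic means overlap. Of the 4 activated genes Lgals3 alone had groups that did not overlap, and no test was made of these means.

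Among themselves the 10 genes fell into a tight set and several that went their own way. The SD of the log2 ratio of a pair over the 6 libraries measures how constant that ratio is, and it is a description of 6 libraries that share depth and tissue makeup. It was 0.25 for Csf1r and Aif1, 0.27 for Cx3cr1 and Tyrobp, and at most 0.44 for any pair among Csf1r, Aif1, Cx3cr1 and Tyrobp, although each of these genes alone had an SD of at least 1.096. Trem2 was nearest to its adaptor Tyrobp (0.55) and P2ry12 nearest to Cx3cr1 (0.63). Spp1 lay farther off, nearest to Trem2 (0.86). Gpnmb and Lgals3 were nearer to each other (0.91) than to any of these, and their ratios to P2ry12 had an SD of 1.97 for Gpnmb and 1.82 for Lgals3. Tmem119, which varied least, had an SD of at least 1.17 against Csf1r, Aif1, Cx3cr1 and Tyrobp. Against Gpnmb its SD was 0.91, so Gpnmb was about as near to Tmem119 as to Lgals3.

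**Figure D4:**
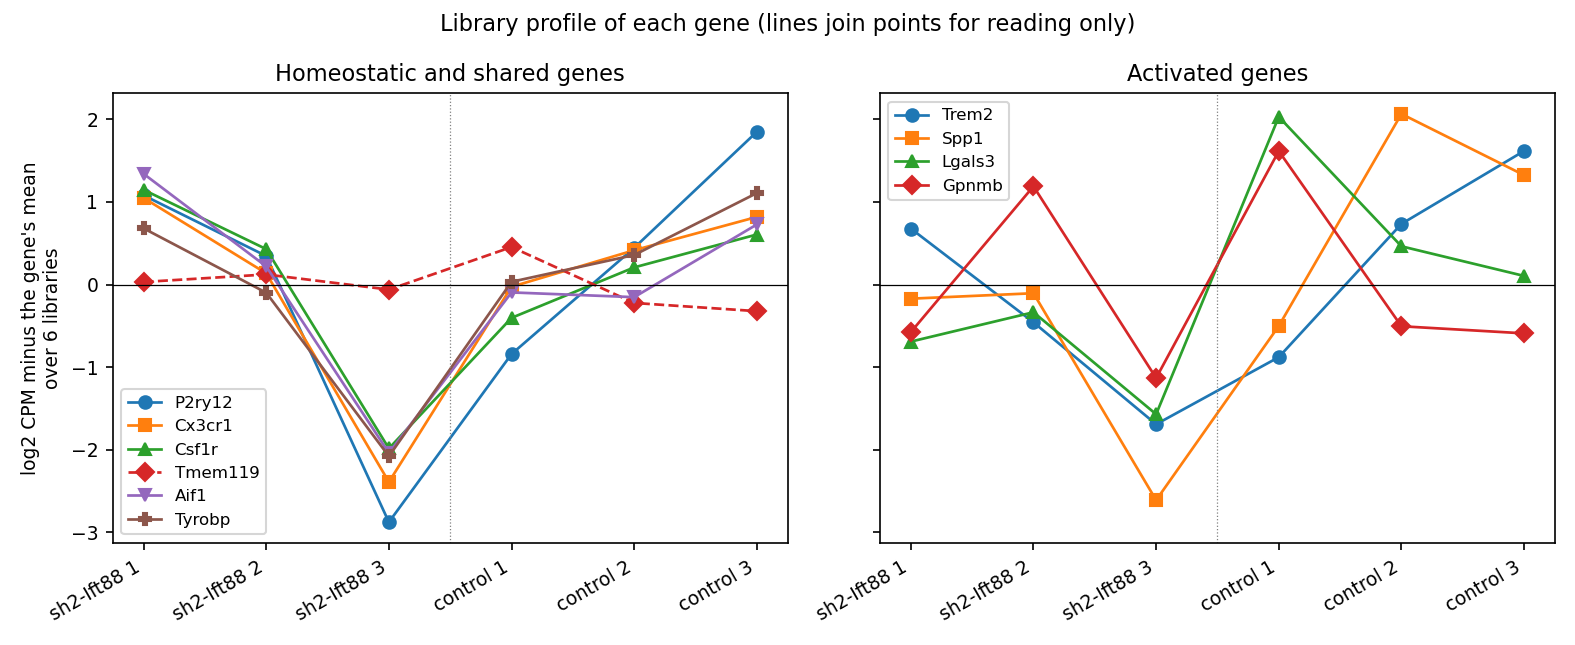
Log2 CPM of each gene minus its own mean over the 6 libraries, for the homeostatic and shared genes (left) and the activated genes (right). The homeostatic and shared genes other than Tmem119 (dashed) reach their lowest point in sh2-Ift88 3, whereas Gpnmb peaks in control 1 and sh2-Ift88 2.

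**Figure D5:**
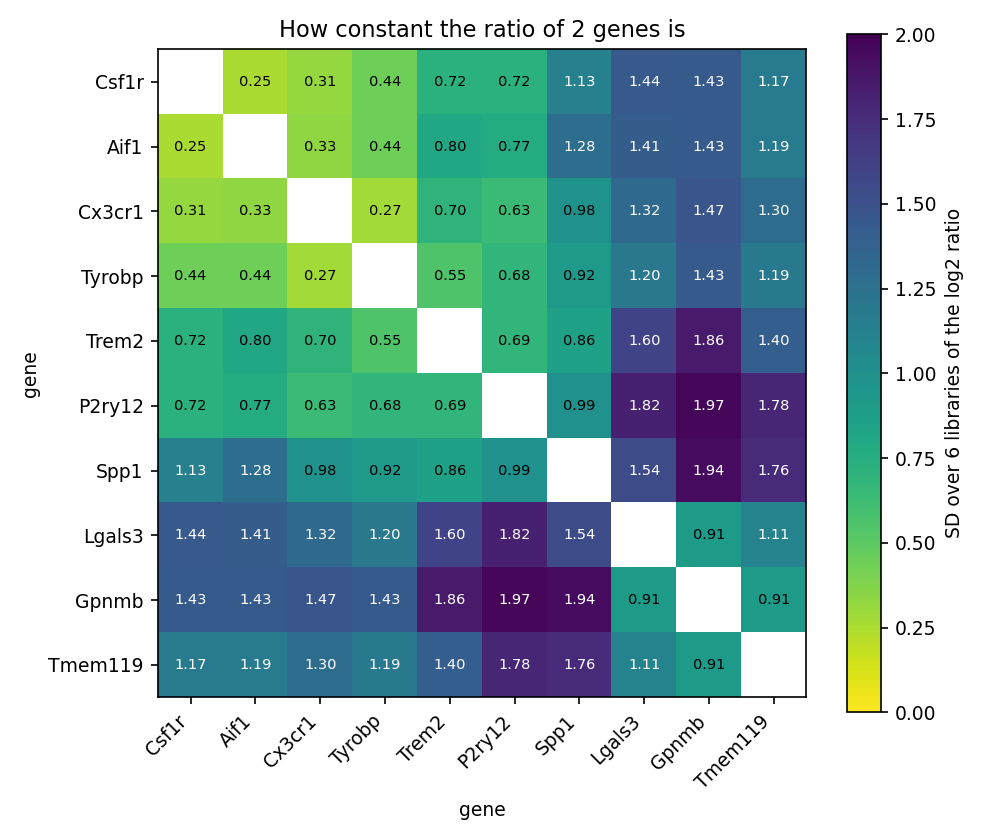
SD over the 6 libraries of the log2 ratio of each pair of genes, where a small value means a constant ratio. Csf1r, Aif1, Cx3cr1 and Tyrobp form the block of small values, between 0.25 and 0.44, and the largest value is 1.97, between P2ry12 and Gpnmb.

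Relative to Tyrobp, 2 of the other 9 genes had groups that did not overlap, both higher in libraries labelled sh2-Ift88. The log2 ratio of Csf1r to Tyrobp was 2.17, 2.23 and 1.79 in sh2-Ift88 1, 2 and 3, against 1.26, 1.55 and 1.20 in controls 1, 2 and 3. The log2 ratio of Aif1 to Tyrobp was -0.86, -1.20 and -1.48 in sh2-Ift88 1, 2 and 3, against -1.65, -2.03 and -1.90 in controls 1, 2 and 3. In sh2-Ift88 3 both ratios rest on 20 reads of Tyrobp, and that of Aif1 on 7 reads of Aif1. The exact Clopper-Pearson intervals there, as used for P2ry12, were 0.763 to 1.93 CPM for Tyrobp and 0.176 to 0.901 CPM for Aif1. For neither ratio was the gap between sh2-Ift88 3 and the nearest control beyond this counting error. Tyrobp was chosen as the denominator after the counts were seen, and 7.31% of all other genes tested had a ratio to Tyrobp that was higher in every library labelled sh2-Ift88 than in every control (7.37% in either direction).

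The genes most like each profile over the 6 libraries, by the same measure among genes averaging at least 1 CPM, differed between the sets. Nearest to the homeostatic mean were Laptm5 (SD of the log2 ratio 0.10), a lysosomal protein of leukocytes, C1qb (0.11), C1qa (0.16) and C1qc (0.19), the chains of complement C1q, and Lyz2 (0.19), the lysozyme of myeloid cells. C1qa was at 45.8, 23.8 and 6.496 CPM in sh2-Ift88 1, 2 and 3, against 20.8, 26.2 and 45.2 CPM in controls 1, 2 and 3. Nearest to Trem2 were Mfsd6 (0.19), Kif21a (0.23), Ache (0.24), Gprin1 (0.24) and Kif5a (0.25), of which Kif21a and Kif5a are kinesins of axonal transport and Ache is acetylcholinesterase. The summed level of 12 mature neuron markers was 245, 176 and 33.6 CPM in sh2-Ift88 1, 2 and 3, against 16.1, 176 and 535 CPM in controls 1, 2 and 3, with Gabra6 and Syn1 at 0 in at least 1 library; as for Trem2, control 3 was highest and control 1 and sh2-Ift88 3 were lowest, and the part of this in the Trem2 values was not tested.

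Nearest to Lgals3 were Timp1 (0.34), an inhibitor of matrix metalloproteinases, Gbp2 (0.45), an interferon-induced GTPase, Ero1l (0.47), an oxidase of the endoplasmic reticulum, Tgfb3 (0.48) and Slitrk2 (0.52). Timp1 was at 2.83, 3.19 and 1.56 CPM in sh2-Ift88 1, 2 and 3, against 10.4, 6.47 and 3.98 CPM in controls 1, 2 and 3. Nearest to Gpnmb were Anxa1 (0.34), a phospholipid-binding protein, Arhgef3 (0.36), Lsp1 (0.39), an actin-binding protein of leukocytes, A930039A15Rik (0.39) and Rai2 (0.40). Anxa1 was at 45.2, 137 and 36.4 CPM in sh2-Ift88 1, 2 and 3, against 182, 69.7 and 66.6 CPM in controls 1, 2 and 3, with control 1 and sh2-Ift88 2 highest as for Gpnmb. For Spp1 the nearest genes were looser fits: Dock5 (0.50), Kbtbd7 (0.52), Nrcam (0.57), Olfm1 (0.58) and Grin2a (0.59), of which Nrcam is a neuronal adhesion molecule and Grin2a a glutamate receptor subunit.

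Further genes of the microglial programme mostly overlapped between the groups, and 0 members of the 16 lists passed the test. Of the 152 listed genes tested, 7 had groups that did not overlap (4.61%, beside 8.39% of all genes), 3 higher and 4 lower in libraries labelled sh2-Ift88. The 3 higher (Slc2a5, Gja1 and Folr1) were separated with TMM scaling but not with library totals alone. By totals sh2-Ift88 3 lay below control 2 in each, with 12 against 16 reads, 4381 against 7246, and 17 against 25. Of 14 other homeostatic microglia genes 12 were tested, 3 higher and 9 lower in libraries labelled sh2-Ift88, with a median log2 fold change of -0.40 (0.041 without control 3). The fructose transporter Slc2a5, the one with groups that did not overlap on the TMM scale, was at 1.05, 1.11 and 0.7496 CPM in sh2-Ift88 1, 2 and 3, against 0.121, 0.520 and 0.544 CPM in controls 1, 2 and 3, higher where the list's median was below 0. Its reads were few, 37, 33 and 12 against 4, 16 and 22. The lysophospholipid receptor Gpr34 was at 1.64, 1.58 and 0.437 CPM in sh2-Ift88 1, 2 and 3, against 0.757, 2.31 and 4.75 CPM in controls 1, 2 and 3. Of 19 shared myeloid genes 5 were higher and 14 lower (median -0.20, but 0.14 without sh2-Ift88 3 and -0.90 without sh2-Ift88 1), their summed level running from 86.6 to 363 CPM in libraries labelled sh2-Ift88 and from 192 to 274 CPM in controls. Of 18 genes of disease-associated microglia 9 were higher and 9 lower (median -0.0074). In that list Cd52, a surface glycoprotein of leukocytes, was at 1.24, 0.941 and 0.187 CPM in sh2-Ift88 1, 2 and 3, against 2.27, 1.27 and 2.2000 CPM in controls 1, 2 and 3, lower without overlap. The gap between sh2-Ift88 1 and control 2 was narrow and rests on 44 and 39 reads of Cd52, and sh2-Ift88 3 had 3 reads. The integrin Itgax was at 0.707, 0.470 and 0.125 CPM in sh2-Ift88 1, 2 and 3, against 2.82, 0.390 and 3.02 CPM in controls 1, 2 and 3, while the lipid carrier Apoe was at 490, 746 and 310 CPM in sh2-Ift88 1, 2 and 3, against 271, 220 and 333 CPM in controls 1, 2 and 3. Apoe is also made by astrocytes, whose 8 markers summed to between 360 and 916 CPM in libraries labelled sh2-Ift88 and between 335 and 862 CPM in controls.

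Downstream of Trem2 and Tyrobp, 3 of 9 tested signalling genes were higher and 6 lower (median -0.31). The tyrosine kinase Syk, which binds phosphorylated Tyrobp, was at 5.15, 6.65 and 9.18 CPM in sh2-Ift88 1, 2 and 3, against 49.9, 5.50 and 16.5 CPM in controls 1, 2 and 3, highest in control 1 where Tyrobp was not. Of 11 tested genes of lipid-handling macrophages 5 were higher and 6 lower (median -0.19), and the macrophage elastase Mmp12 was at 0.113, 0.739 and 0.187 CPM in sh2-Ift88 1, 2 and 3, against 6.66, 0.423 and 1.73 CPM in controls 1, 2 and 3. Of 12 ligands and partners 6 were higher and 6 lower (median -0.032). The osteopontin receptor Cd44 was at 78.8, 61.9 and 56.5 CPM in sh2-Ift88 1, 2 and 3, against 99.0, 62.7 and 127 CPM in controls 1, 2 and 3, and the Csf1r ligand Il34 was at 2.01, 5.07 and 3.31 CPM in sh2-Ift88 1, 2 and 3, against 4.57, 1.46 and 1.38 CPM in controls 1, 2 and 3.

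Markers of other myeloid and blood cells, which can carry some of the same genes, gave 0 calls. Of those tested, 2 had groups that did not overlap, Ly6c2 and Cxcr2, both lower in libraries labelled sh2-Ift88 (as 3.69% of all genes were). Among genes with too few reads to be tested, 2 lymphocyte genes also did not overlap. Cd79a was higher (12, 23 and 9 reads in sh2-Ift88 1, 2 and 3, against 3, 2 and 5 in controls 1, 2 and 3). Nkg7 was lower (1, 1 and 0 reads against 4, 2 and 3). Border-associated macrophage genes had 9 of 9 tested members higher in libraries labelled sh2-Ift88 (median 0.54, 0 passing). That direction rested on sh2-Ift88 1: the median was -0.19 without it, 1.09 without control 2, and -0.81 within the libraries with olfactory receptor reads. Their summed level overlapped, from 27.5 to 180 CPM in libraries labelled sh2-Ift88 and from 39.8 to 140 CPM in controls. Monocyte genes had 2 of 8 higher and 6 lower (median -0.35), with the defining gene Ly6c2 at 0.0283, 0.134 and 0.187 CPM in sh2-Ift88 1, 2 and 3, against 0.515, 0.358 and 0.297 CPM in controls 1, 2 and 3. These Ly6c2 values are near the floor, with 1, 4 and 3 reads against 17, 11 and 12. Ccr2, of the same list, overlapped, at 0.538, 0.739 and 2.81 CPM in sh2-Ift88 1, 2 and 3, against 3.12, 1.40 and 0.865 CPM in controls 1, 2 and 3. Neutrophil genes summed to between 1.4996 and 4.40 CPM in libraries labelled sh2-Ift88 and between 2.87 and 6.39 CPM in controls, and 5 of 10 were tested, 2 higher and 3 lower (median -0.79, but -0.38 without control 1). The chemokine receptor Cxcr2 was at 0.792, 0.773 and 1.12 CPM in sh2-Ift88 1, 2 and 3, against 1.67, 2.05 and 2.15 CPM in controls 1, 2 and 3. Lymphocyte genes summed to at most 2.69 CPM in any library, with the T cell receptor component Cd3e at 0 in at least 1 library, and both tested members were higher (median 0.13, but -0.18 without control 3). The part of these cells in the levels of Spp1, Lgals3 and Gpnmb was not tested.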

How the data were processed

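Libraries were grouped by their descriptions, 3 labelled sh2-Ift88 and 3 control. The submitters' processing notes name BWA and mm9; which counting program, annotation and strand setting the authors used is not given in the sources used here. Deposited as raw counts, each of the 6 tables held 34591 genes and 5 tallies, which were set aside (reads without a feature, 18.8% to 39.5%). Csf1r shares 873 exonic bases in GENCODE M21 with Hmgxb3 on the opposite strand and, since strand handling is unknown, may hold its reads; Spp1 shares 309 bases with Gm42793 on the same strand, where strand cannot separate them. GENCODE M21 (GRCm38) also gave transcript lengths. Spi1 and Adgre1 were read as Sfpi1 and Emr1.

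The test was the two-sided quasi-likelihood test of edgeR 4.0.16 under R 4.3.3, with filterByExpr (16768 genes, all 10 microglial genes among them), TMM factors, robust=TRUE and Benjamini-Hochberg adjustment over all genes at 0.05. It was tested on simulated data that gave every gene the same dispersion, so its power at the spread of these libraries was not measured. CPM use TMM-scaled library sizes, and log2 CPM a prior count of 0.5. Alternatives were DESeq2 1.42.0, voom of limma 3.58.1, other scalings and filters, leaving out each library, and a term for olfactory receptor reads. The 10 genes and the 16 lists were chosen with earlier results of these data known. Named genes are the 10, Ift88, the 5 nearest by ratio to the homeostatic mean and to each activated gene, and some of the 4 of smallest p in each list. Marker genes said to be at 0, and Cd79a, Nkg7, Ccr2, Mitf, Pmel, Ttr and Otx2, were named after their values were seen.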

Additional observations from a re-analysis of the deposited data

How the results depend on the processing

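No alternative called any of the 10 microglial genes. The number of genes called over the whole table was 6 without a filter on low counts and 56 with DESeq2, against 0 with edgeR's main settings and 541 at an unadjusted p of 0.05. Lgals3, Spp1, Trem2 and Tyrobp kept a log2 fold change below 0 in all 17 alternative fits. The adjusted p of Lgals3 ran from 0.319 with DESeq2 to 1, and that of Spp1 from 0.798 with DESeq2 to 1. Direction changed for P2ry12, Cx3cr1, Csf1r, Tmem119, Aif1 and Gpnmb. Tmem119 was at -3e-04 with DESeq2 size factors, -2e-04 with DESeq2, -0.025 without a filter, -0.26 with library totals alone and -0.12 within the libraries without olfactory receptor reads. Library totals alone moved the median of all genes to -0.33, and Csf1r to -0.0071. With limma-voom Csf1r was at -0.051 and Aif1 at -0.12. Within the libraries with such reads Csf1r was at -0.54, Aif1 at -0.35 and Gpnmb at 0.94, and within those without, Cx3cr1 was at 0.55. The cause was not tested. Leaving out each library in turn gave log2 fold changes from -1.42 to 0.31 for P2ry12, -1.10 to 0.18 for Cx3cr1, -0.54 to 0.60 for Csf1r, -0.13 to 0.30 for Tmem119, -0.75 to 0.63 for Aif1, -1.37 to -0.27 for Tyrobp, -1.80 to -0.32 for Trem2, -2.33 to -1.28 for Spp1, -2.24 to -1.07 for Lgals3 and -1.39 to 0.73 for Gpnmb, with 0 genes called. The activated minus homeostatic difference between the groups ran from -0.9993 to -0.43 with libraries left out, was -0.56 without Tmem119, and was -1.34 within the libraries without olfactory receptor reads, where 1 library stands alone. No paired analysis was possible because the labels give no replicate numbers. Depth limits P2ry12, Trem2 and Aif1 in sh2-Ift88 3, which rest on 3, 9 and 7 reads.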

Other observations

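Some myeloid genes did not follow the microglial profile. The transcription factor Irf8 was at 11.7, 4.64 and 12.9 CPM in sh2-Ift88 1, 2 and 3, against 4.69, 5.59 and 4.92 CPM in controls 1, 2 and 3, so that sh2-Ift88 3, where C1qa and Csf1r were lowest, was its highest library; scaled by library totals alone it was at 12.3, 5.06 and 7.72 CPM in sh2-Ift88 1, 2 and 3, against 5.01, 6.17 and 6.08 CPM in controls 1, 2 and 3, with sh2-Ift88 1 highest. Runx1, a transcription factor of blood and microglial development, was at 82.5, 17.3 and 11.5 CPM in sh2-Ift88 1, 2 and 3, against 29.7, 14.8 and 10.98 CPM in controls 1, 2 and 3. Olfml3, a secreted protein enriched in microglia, was at 224, 148 and 50.7 CPM in sh2-Ift88 1, 2 and 3, against 88.5, 111 and 87.6 CPM in controls 1, 2 and 3. None of the 3 passed the test. Of the other cell types, oligodendrocyte genes were lower in 8 of 8 (median log2 fold change -1.39, summed level 23.2 to 101 CPM in libraries labelled sh2-Ift88 and 21.7 to 256 CPM in controls). Their median was -0.29 without control 3, -1.96 without sh2-Ift88 2 and -0.67 with limma-voom. Choroid plexus and ependymal genes were higher in 6 of 6 tested (median 0.91, summed level 327 to 1743 CPM in libraries labelled sh2-Ift88 and 53.3 to 463 CPM in controls). The untested gene Ttr made up 1389 CPM of the 1743 CPM in sh2-Ift88 1 and was below 1 CPM in the other 5 libraries. In those 5 most of the sum was Otx2, whose log2 fold change was 0.08. Otx2 was at 272, 309 and 260 CPM in sh2-Ift88 1, 2 and 3, against 337, 427 and 31.3 CPM in controls 1, 2 and 3. The median was 0.42 without sh2-Ift88 1, 3.54 without control 1 and -0.15 within the libraries with olfactory receptor reads. Vascular genes split 4 and 4 (median 0.0023), and 0 genes of these lists passed. Astrocyte genes were higher in 5 of 8 (median 0.024), melanosome genes in 5 of 6 tested (median 0.58), and mature neuron genes in 1 of 12 (median -0.88), again with 0 passing. The melanosome median was 0.24 without sh2-Ift88 2. The neuron median was 0.51 without control 3, -1.70 without sh2-Ift88 1 and 0.32 with limma-voom, so its direction rested on 1 library and on the method.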
